A study of Mus musculus with 16 samples.

Results

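Phospholipases, lysophospholipid acyltransferases and the phosphatases that work on the same lipids were followed in mouse *p53*-/-; *Myc* hepatoblasts treated with sorafenib. The genes were taken by symbol: a row was a member if its name opened with Pla2g, Lpcat, Agpat, Mboat, Gpat, Lpgat, Plpp, Lpin, Pla1a, Plaat or Pld followed directly by a digit and if it had at least 10 counts over the 16 libraries. Of 58 rows with such a name among 40840, 41 were members, and they stood among 20444 genes with that number of counts. The other 17 rows were not analysed further. Of these, 9 had no count in any library (Pld5, Pla2g4d, Pla2g2c, Pla2g2f, Pla2g2d, Pla2g2a, Plaat1, Plaat5 and Plpp6) and the other 8, among them Pla2g1b, Pla2g5 and Lpcat2b, had 1 to 7 counts each. Because the name needs a digit after the stem, Pla1a and Gpam were not members and were counted among the related genes. Within this rule, no expression value beyond the count minimum decided which genes were members. The rule itself was chosen with earlier results of these data known.

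Membrane phospholipids carry their fatty acids on a glycerol backbone, and the fatty acids are exchanged after synthesis in a cycle of deacylation and reacylation. Phospholipases A2 cut off a fatty acid, often arachidonate, and leave a lysophospholipid, which lysophospholipid acyltransferases (the LPCAT, LPGAT and some MBOAT enzymes) refill with a new acyl chain. New glycerolipid is built by glycerol-3-phosphate acyltransferases (GPAT) and lysophosphatidate acyltransferases (AGPAT), which make phosphatidate, and by lipins, which turn phosphatidate into diacylglycerol. Phospholipase D makes phosphatidate from existing phosphatidylcholine. The lipid phosphate phosphatases (PLPP) remove phosphate from lysophosphatidate and related lipids. In liver, these enzymes set the acyl chains of membranes and lipoproteins and the flow of fatty acids into triglyceride.

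The 16 RNA-seq libraries formed 4 groups of 4, treated with 8.5 µM sorafenib, a multikinase inhibitor used against hepatocellular carcinoma (HCC), or with its vehicle DMSO, for 48 hours or 7 days. All came from 1 cell line, hepatoblasts that lack p53 and overexpress Myc, which the labels give as HCC. The labels number the replicates and do not say whether they were separate cultures, so the tests measure only the spread between these libraries. DMSO and sorafenib were compared at each time, and then the responses at the 2 times were compared with each other.

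Total counts ranged from 16586254 to 30828427 per library. Defining liver markers were absent or nearly so: *Hnf4a* was at 0 in all libraries, *Alb* had at most 1 count and *Afp* at most 14, whereas *Dlk1* (3488 to 38122 counts) and *Krt19* (865 to 3013) were plentiful. The summed level of 9 liver markers lay at 34810 to 36180 normalized counts in DMSO and 12240 to 14010 in sorafenib at 48 hours. At 7 days it lay at 18300 to 20170 and 6039 to 6307. This sum was mostly *Dlk1*, with means of 32230 in DMSO and 10440 in sorafenib at 48 hours, and 16770 and 4020 at 7 days. *Sox9* went the other way, from 212.5 to 664.2 and from 349.7 to 904. Of the 7 tested, 1 was called higher and 5 lower at 48 hours, and 1 higher and 6 lower at 7 days. For 8 markers of other cells, the sums were 47280 to 50150 and 135800 to 156200 at 48 hours and 70100 to 72300 and 114900 to 120000 at 7 days, with 3 of the 6 tested called higher at 48 hours, and 2 higher and 2 lower at 7 days. These sums were mostly *Col1a1* (39863 to 81817 counts) and *Acta2* (4682 to 77571), which are typical of mesenchymal cells. *Ptprc* of leukocytes had at most 4 counts and *Cdh5* of endothelium at most 2. The part of these markers in the results below was not tested. In bulk RNA, fewer cells of a kind and less RNA per cell cannot be told apart. In sorafenib 48 hours replicate 2, counts were lowered from *Obi1* (chromosome 14, position 104714969, GRCm39) through the end of chromosome X. Against the other libraries of its group, as shares of total counts, its median log2 deviation was 0.13 before *Obi1*. From *Obi1* on it was -0.59, a step of -0.73. In this lowered region lie 7 members, of which *Pla2g6*, *Agpat1*, *Agpat4* and *Lpin2* are described below with and without that library. Gene positions are those of GENCODE vM39 on GRCm39, the build of the files.

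The upstream sequences of *Pla2g4a* and *Lpcat3*, the phospholipase A2 with the largest log2 fold change at 7 days and the lysophospholipid acyltransferase with the lowest, are shown to let their base composition be compared. Each is the 250 bases before a transcription start, from RefSeq promoters of build GRCm38.p6, placed on GRCm39 by an exact and single match, at chr1:149837042-149837291 (minus strand) and chr6:124639817-124640066 (plus strand). Capitals mark CG dinucleotides.
Pla2g4a: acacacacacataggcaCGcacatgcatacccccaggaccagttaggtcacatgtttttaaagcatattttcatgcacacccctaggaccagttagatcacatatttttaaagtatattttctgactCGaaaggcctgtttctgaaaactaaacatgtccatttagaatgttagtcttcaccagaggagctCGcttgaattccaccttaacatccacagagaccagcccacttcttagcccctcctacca
Lpcat3: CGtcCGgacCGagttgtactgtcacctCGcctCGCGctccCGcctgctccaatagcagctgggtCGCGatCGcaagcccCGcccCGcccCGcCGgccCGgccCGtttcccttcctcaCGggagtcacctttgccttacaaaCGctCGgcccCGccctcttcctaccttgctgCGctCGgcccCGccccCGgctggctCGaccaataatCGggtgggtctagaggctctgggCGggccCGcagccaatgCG
The *Pla2g4a* stretch held 3 CG dinucleotides and 43.2% G and C, and the *Lpcat3* stretch held 29 and 70.0%. Of the 2 RefSeq promoters of *Pla2g4a* only 1 is shown. GENCODE gives 8 transcript starts for *Pla2g4a* and 21 for *Lpcat3*, so each stretch stands for 1 start only. The median was 6 CG dinucleotides over all 32851 promoters of the table and 14 over the 45 promoters that matched 34 members. Both strands of the 300-base promoters were searched for TGATGNAAT, the response element bound by C/EBP and ATF factors, and for TCACNCCAC, the core of the sterol response element. The former occurred in 0 of the 45 member promoters and in 0.965% of all promoters, which says only that these letters are not in these windows. The latter occurred in 1 member promoter and in 1.24% of all. That promoter belonged to *Pla2g12a* and is shown because it held the match, in capitals, which begins 78 bases before the start and reads on the minus strand. It lies at chr3:129674583-129674832 (GRCm39, plus strand), before a transcript start that is 2622 bases inside the annotated gene.
Pla2g12a: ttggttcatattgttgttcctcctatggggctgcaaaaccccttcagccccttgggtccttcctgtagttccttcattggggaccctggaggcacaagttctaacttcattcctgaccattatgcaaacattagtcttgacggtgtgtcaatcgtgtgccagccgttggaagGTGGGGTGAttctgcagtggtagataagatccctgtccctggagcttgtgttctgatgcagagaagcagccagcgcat

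At 48 hours, sorafenib raised 17 of the 41 members and lowered 13 by edgeR's quasi-likelihood test, with a call at a Benjamini-Hochberg adjusted p (FDR) under 0.05 over all 20444 genes. In the same test 26.9% of all genes were called higher and 27.7% lower. At 7 days, 18 members were higher and 11 lower, where 28.9% and 27.9% of all genes were. A call in the same direction at both times was made for 24 members, 15 higher and 9 lower, and 7 members were called at neither time. The matching shares of all genes are not given, so these counts only describe the members. *Mboat7* was called in opposite directions. With a minimum of 1 on the absolute log2 fold change, calls were made for 11 members at 48 hours, against 18.0% of all genes, and for 16 at 7 days, against 20.6%. The 4 libraries of sorafenib and the 4 of DMSO did not overlap for 28 members at 48 hours, against 48.0% of genes, and for 29 at 7 days, against 56.8%.

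Most calls were made among the more abundant members. The 28 members whose mean over the 16 libraries reached 50 normalized counts are the ones described by name below, and 26 of them were called at 48 hours and 25 at 7 days, against 75.8% and 75.9% of the 11491 genes that reached the same mean. The median absolute log2 fold change of the 28 was 0.633 at 48 hours and 0.484 at 7 days, and over the 11491 genes it was 0.353 and 0.337. The median signed log2 fold change of the 41 was -0.09 at 48 hours and 0.28 at 7 days, against -0.05 and 0.02 over all genes tested.

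**Figure D1:**
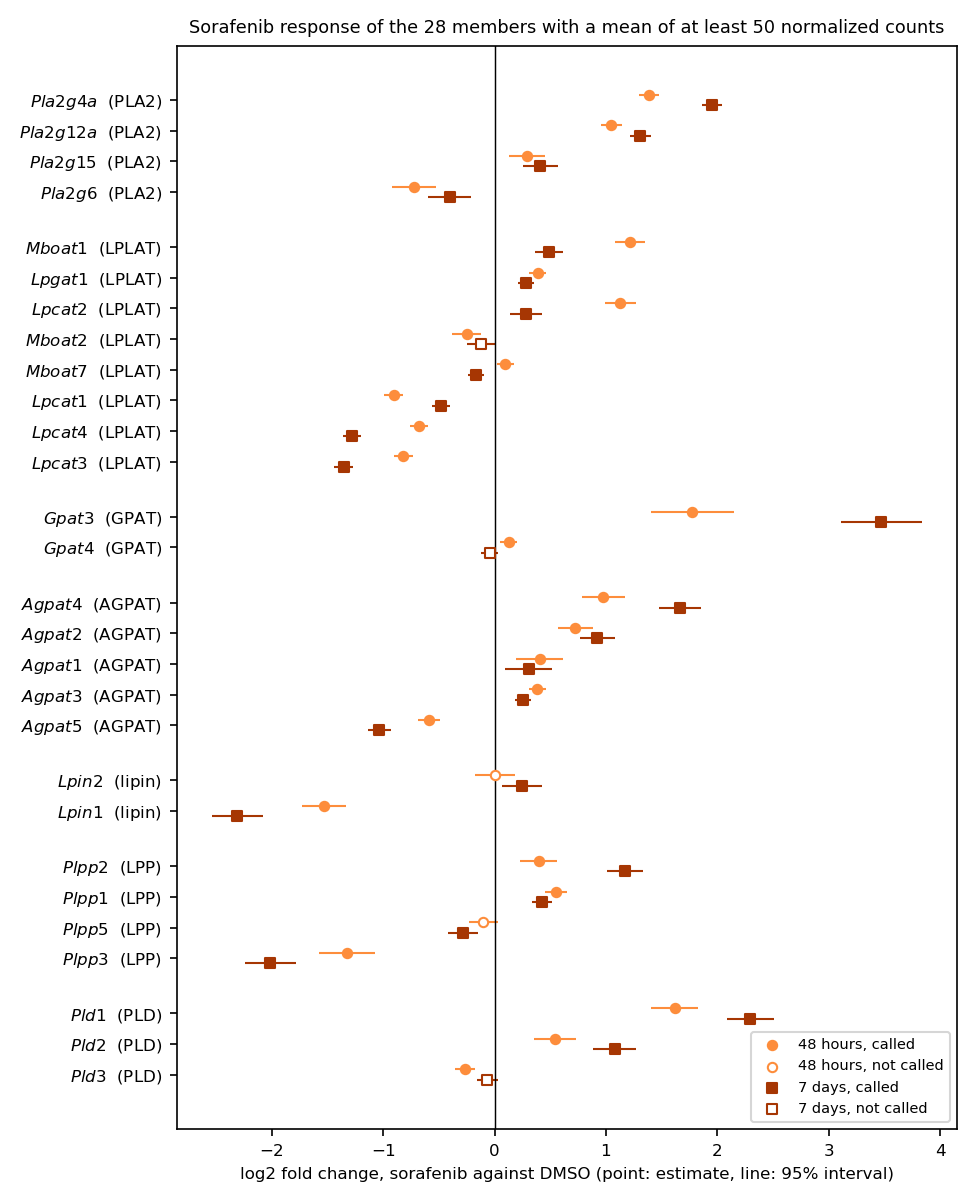
Log2 fold change of sorafenib against DMSO (horizontal axis) for each of the 28 members whose mean reached 50 normalized counts, at 48 hours (circles) and 7 days (squares), with 95% intervals from edgeR and open symbols where the FDR was 0.05 or more. Genes are grouped as phospholipases A2 (PLA2), lysophospholipid acyltransferases (LPLAT), GPAT, AGPAT, lipins, lipid phosphate phosphatases (LPP) and phospholipases D (PLD). *Gpat3* lies farthest to the right at 7 days, at 3.47, and *Lpin1* farthest to the left, at -2.31.

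Among the phospholipases A2, *Pla2g4a* rose at both times. The gene (chromosome 1, 149705369 to 149837053, minus strand) encodes the calcium-dependent cytosolic enzyme that releases arachidonate. Its normalized counts at 48 hours were 568.9, 564.8, 564.6 and 527.1 in DMSO and 1351, 1512, 1487 and 1465 in sorafenib. At 7 days they were 495.2, 516.5, 471.3 and 505.5 in DMSO and 1898, 1954, 1915 and 1947 in sorafenib. Every sorafenib library was above every DMSO library, and every sorafenib library of 7 days was above those of 48 hours. The log2 fold change was 1.39 ± 0.044 (SE, FDR = 4.95e-16) at 48 hours, a 2.61-fold rise, and 1.96 ± 0.043 (SE, FDR = 2.06e-18) at 7 days, a 3.88-fold rise. The response was larger at 7 days by 0.57 ± 0.061 (SE, FDR = 3.07e-07).

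*Pla2g12a*, a secreted phospholipase A2, rose from 1049 ± 50.8 to 2166 ± 53.2 normalized counts (mean ± SD, n = 4, here and below) at 48 hours and from 824 ± 53.1 to 2042 ± 41.1 at 7 days, with log2 fold changes of 1.05 ± 0.045 (SE, FDR = 6.82e-14) and 1.31 ± 0.045 (SE, FDR = 2.22e-15). A part of its exons, 20.1%, overlaps *Gm46825* on the other strand, which had a mean of only 3.89 normalized counts. *Pla2g15*, the lysosomal phospholipase A2, rose less, by 0.29 and 0.41 on the log2 scale (FDR = 0.00287 and 0.000103), and its libraries overlapped at 48 hours.

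*Pla2g6*, the calcium-independent enzyme, fell. Its counts at 48 hours were 990.2, 997.7, 999.5 and 1024 in DMSO and 707.2, 415.8, 653.9 and 636 in sorafenib, where replicate 2 is the library with lowered counts in this region. At 7 days the means were 769 ± 15.8 and 582 ± 30.7. The log2 fold changes were -0.72 ± 0.093 (SE, FDR = 1.32e-06) and -0.40 ± 0.093 (SE, FDR = 0.000924). Without that library the 48-hour value was -0.60 (FDR = 3e-15). The response at 7 days was weaker than that at 48 hours by 0.32 ± 0.13 (SE, FDR = 0.0657) with all libraries, which was not called, and by 0.19 without that library (FDR = 0.0185), which was.

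Divided by exon length, so that genes can be compared, the normalized counts of the 10 phospholipases A2 among the members summed to 512 ± 11.1 per kb in DMSO and 799.5 ± 9.02 in sorafenib at 48 hours, and to 417.2 ± 5.73 and 837.6 ± 7.72 at 7 days. *Pla2g12a* was the highest of them per length in each group. The share of *Pla2g4a* in the sum was 14.5% ± 0.72 in DMSO and 24.2% ± 1.2 in sorafenib at 48 hours, and 15.9% ± 0.66 and 30.7% ± 0.70 at 7 days. The share of *Pla2g6* was 28.3% ± 0.50 and 10.9% ± 2.3 at 48 hours, and 26.7% ± 0.71 and 10.1% ± 0.44 at 7 days. The value of 10.9% includes the library with lowered counts in the region of *Pla2g6*. In DMSO at 48 hours, *Pla2g15* (75.6 ± 3.16 per kb) and *Pla2g4a* (74.1 ± 2.61 per kb) did not differ beyond their spread.

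**Figure D2:**
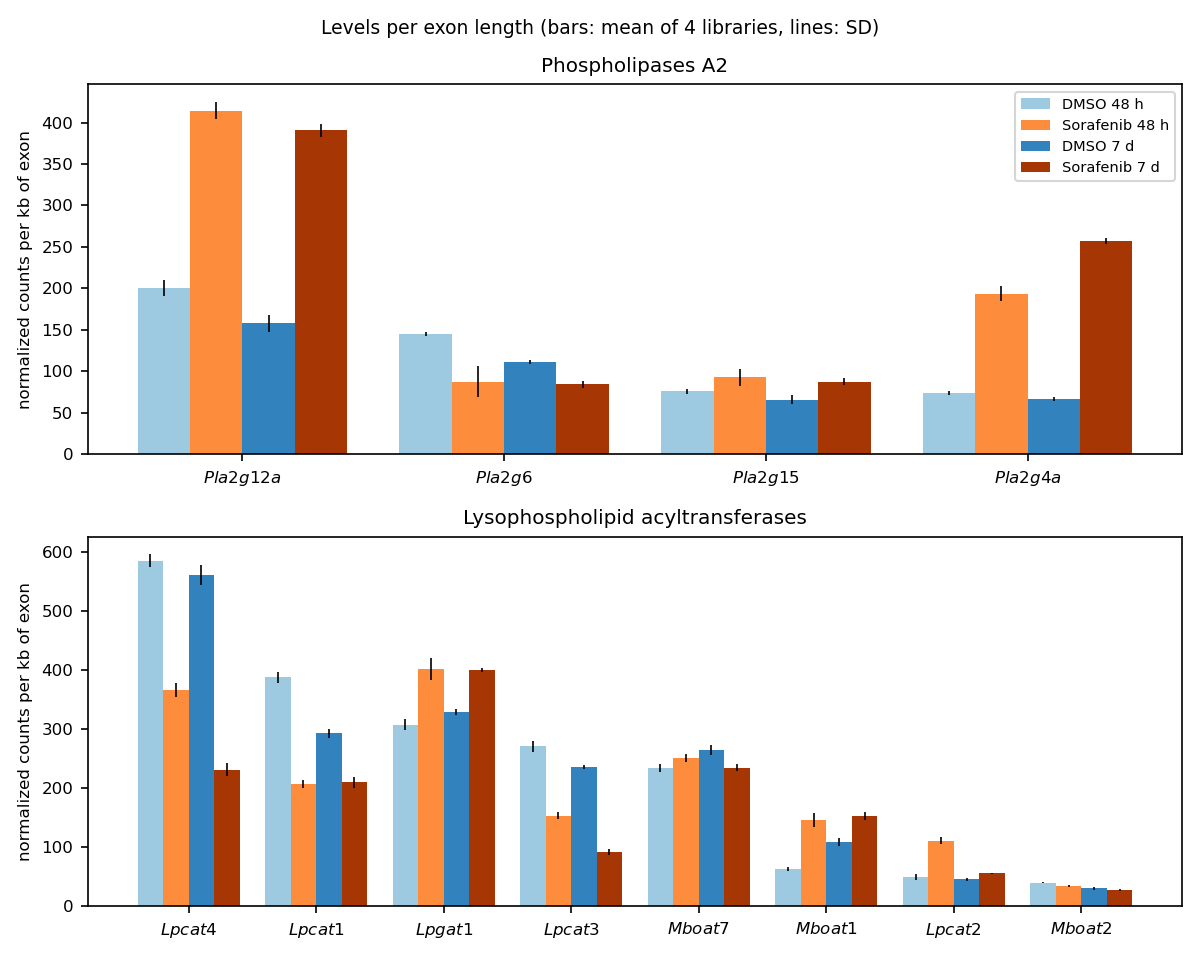
Normalized counts per kb of exon (vertical axes, from 0) of the 4 phospholipases A2 (top) and 8 lysophospholipid acyltransferases (bottom) whose mean reached 50 normalized counts, in the 4 groups, as mean and SD of 4 libraries. In DMSO at 48 hours *Lpcat4* was the highest acyltransferase, at 586 per kb, and in sorafenib at 7 days *Lpgat1* was, at 401 per kb.

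The lysophospholipid acyltransferases went both ways. Of the 8 members of this class, 4 rose and 4 fell at 48 hours, and 3 rose and 4 fell at 7 days. Over all genes, 26.9% were called higher and 27.7% lower at 48 hours, and 28.9% and 27.9% at 7 days. All 8 reached a mean of 50 normalized counts. Among all genes that did, 75.8% were called at 48 hours and 75.9% at 7 days, in either direction. Calls in both directions are thus not particular to this class. *Lpcat3* (chromosome 6, 124639765 to 124684440, plus strand) puts polyunsaturated acyl chains into phosphatidylcholine and phosphatidylethanolamine. It had normalized counts of 2154, 2066, 2241 and 2186 in DMSO and 1197, 1255, 1179 and 1270 in sorafenib at 48 hours. After 7 days its counts were 1885, 1885, 1846 and 1901 in DMSO and 777.3, 727.7, 742.6 and 690.6 in sorafenib. The groups did not overlap at either time. *Lpcat3* fell by 0.82 on the log2 scale at 48 hours and by 1.36 at 7 days, to 0.567 and 0.391 of its level in DMSO, and its response was larger at 7 days (-0.54 ± 0.057 (SE, FDR = 2.58e-07)). On 53.8% of its exon length *Lpcat3* overlaps *Emg1*, a gene of the other strand, whose own log2 fold changes were -0.14 and -0.49. The sources used here do not give whether strand was used in counting, so reads of that stretch cannot be assigned with certainty.

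*Lpcat4*, which reacylates lysophosphatidylethanolamine and related lipids, fell from 2641 ± 47.2 to 1651 ± 51.4 normalized counts at 48 hours and from 2530 ± 79.6 to 1046 ± 48.6 at 7 days (-0.68 ± 0.038 (SE, FDR = 4.6e-12) and -1.28 ± 0.038 (SE, FDR = 2.38e-16)). It overlaps *Nutm1* on 28.3% of its exon length, and *Nutm1* had a mean of 10.5 normalized counts.

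*Lpcat1* (chromosome 13, 73615316 to 73664580, plus strand) makes saturated phosphatidylcholine, as in lung surfactant. At 48 hours it had 1873, 1957, 1870 and 1848 in DMSO and 1014, 1051, 964.1 and 1006 in sorafenib. The 7-day counts were 1406, 1383, 1456 and 1456 in DMSO and 1031, 1027, 963 and 1066 in sorafenib. The sorafenib libraries of both times overlapped, while the DMSO libraries of 7 days were all below those of 48 hours. Its fall was -0.91 ± 0.040 (SE, FDR = 1.03e-13) at 48 hours and -0.48 ± 0.039 (SE, FDR = 1.82e-09) at 7 days, and the difference between these was called (0.42 ± 0.056 (SE, FDR = 4.42e-06)).

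*Lpcat2* (chromosome 8, 93581919 to 93645910, plus strand), which also makes platelet-activating factor, rose instead. At 48 hours it had 213.1, 268.9, 261.4 and 245.4 in DMSO and 543, 580.7, 511.1 and 534.9 in sorafenib. At 7 days it had 209.8, 233, 233.1 and 226.3 in DMSO and 272.2, 272.9, 281.6 and 271.5 in sorafenib. The groups did not overlap at either time, but the 7-day gap was small: the log2 fold change was 1.13 ± 0.066 (SE, FDR = 1.06e-11) at 48 hours and 0.28 ± 0.070 (SE, FDR = 0.00182) at 7 days, a difference of -0.85 ± 0.097 (SE, FDR = 6.87e-07). Within sorafenib, the level at 7 days was lower than at 48 hours by 0.98 on the log2 scale (FDR = 3.12e-10).

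*Mboat1* (chromosome 13, 30320322 to 30430711, plus strand) and *Mboat2* (chromosome 12, 24880844 to 25014397, plus strand) encode related acyltransferases that prefer monounsaturated acyl chains, and they did not respond alike. *Mboat1* had 245.3, 271.5, 255.2 and 253.2 in DMSO and 628.6, 562.5, 643.4 and 546.3 in sorafenib at 48 hours. It had 432.5, 472.9, 408.3 and 455.4 in DMSO and 620.9, 653.8, 614 and 592.2 in sorafenib at 7 days. The sorafenib libraries of both times overlapped, and the DMSO libraries were higher at 7 days. The log2 fold change was 1.22 ± 0.066 (SE, FDR = 2.75e-12) at 48 hours and 0.49 ± 0.060 (SE, FDR = 7.02e-07) at 7 days, and the response was smaller at 7 days (-0.73 ± 0.089 (SE, FDR = 1.77e-06)).

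*Mboat2* had 707.7, 732.2, 737.1 and 706.9 in DMSO and 646.8, 610.9, 592.9 and 581.5 in sorafenib at 48 hours. It had 584.9, 569.7, 494.6 and 529.6 in DMSO and 451.1, 556.3, 506.4 and 484 in sorafenib at 7 days. It was lower in every sorafenib library at 48 hours (-0.25 ± 0.062 (SE, FDR = 0.00198)), whereas the groups overlapped at 7 days, where the log2 fold change of -0.12 ± 0.063 (SE, FDR = 0.118) was not called, with a 95% interval from -0.25 to 0.01. Without DMSO 7 days replicate 3 it was -0.16 (FDR = 0.0384), and without sorafenib 7 days replicate 2 it was -0.18 (FDR = 0.0228), and each of these was called.

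*Lpgat1*, an acyltransferase of lysophosphatidylglycerol and other lysolipids, rose by 0.39 and 0.28 on the log2 scale (FDR = 1.01e-08 and 7.66e-07). *Mboat7*, which puts arachidonate into phosphatidylinositol, had means of 1999 ± 55.6 and 2141 ± 59.0 at 48 hours and 2257 ± 72.9 and 2008 ± 56.1 at 7 days. Its rise at 48 hours (0.10 ± 0.036 (SE, FDR = 0.0253)) lost its call in 10 of the alternatives, among them 6 that left out 1 library (DMSO replicates 1, 3 and 4 and sorafenib replicates 1, 3 and 4, each of 48 hours), in which the log2 fold change was 0.05 to 0.08. Its fall at 7 days (-0.17 ± 0.035 (SE, FDR = 0.00038)) was small. *Mboat7* overlaps *Tsen34* of the other strand on 25.8% of its exon length. *Tsen34* had a mean of 2474 normalized counts and log2 fold changes of -0.32 and 0.0, so the counts of *Mboat7* are uncertain. Summed per length, the 8 acyltransferases stood at 1942 ± 15.1 per kb in DMSO and 1673 ± 29.5 in sorafenib at 48 hours, and at 1871 ± 21.1 and 1408 ± 13.9 at 7 days.

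**Figure D3:**
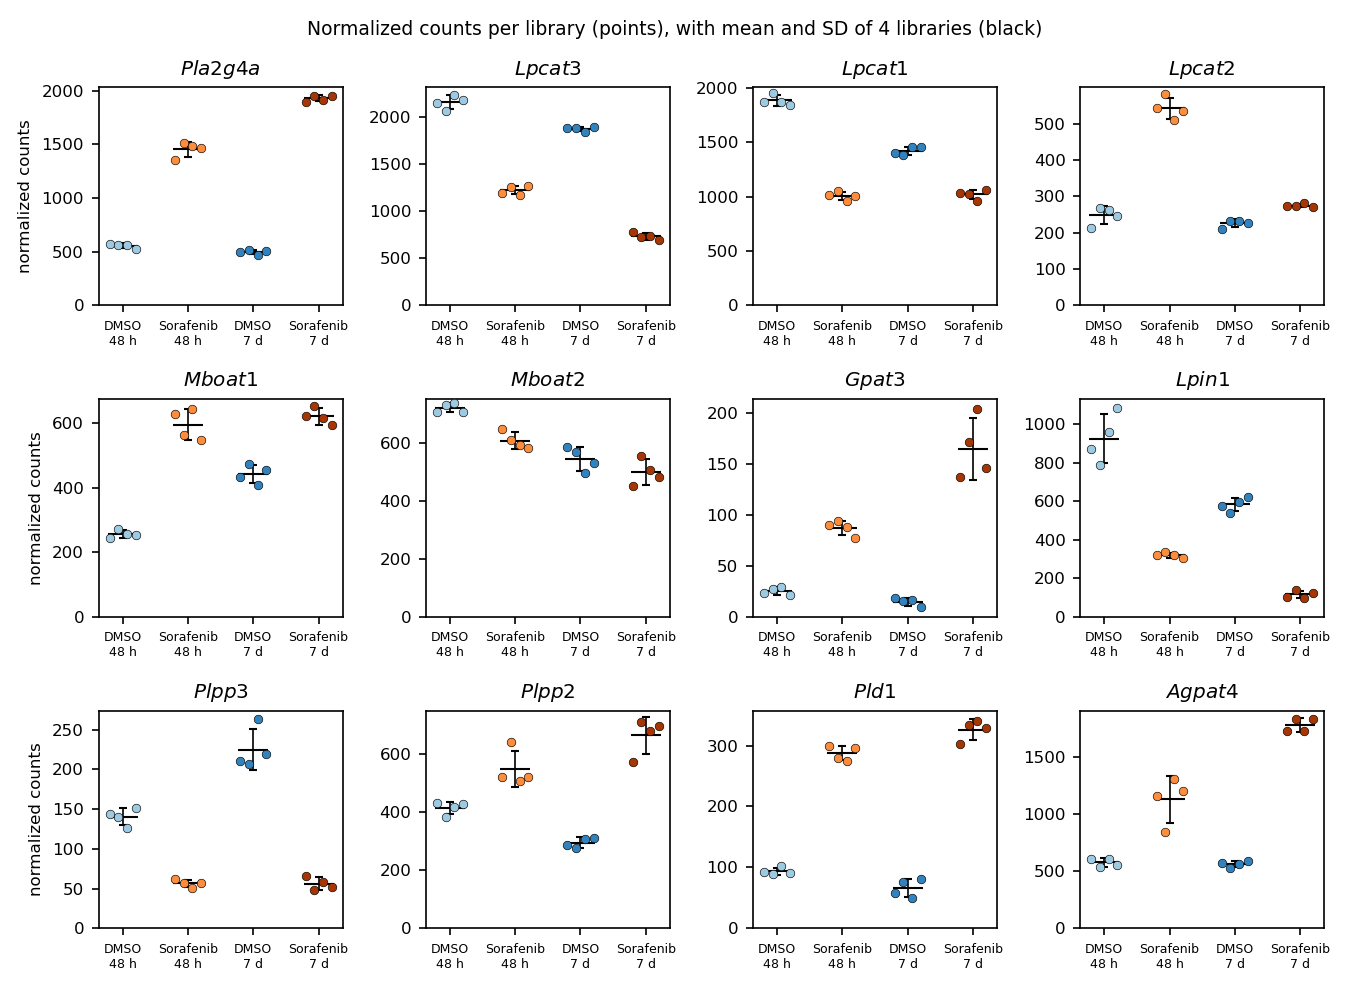
Normalized counts (vertical axes, from 0) of 12 members in every library (points), with the mean and SD of 4 libraries in black. *Pla2g4a* sits between 1898 and 1954 in sorafenib at 7 days and at 568.9 or less in both DMSO groups, and *Lpcat3* runs the other way, from 1846 or more in DMSO to 777.3 or less in sorafenib at 7 days.

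The enzymes that open glycerolipid synthesis changed unequally. *Gpat3* (chromosome 5, 100993579 to 101046968, plus strand), a glycerol-3-phosphate acyltransferase of the endoplasmic reticulum, had the largest rise of the 28 at both times. Its normalized counts were 23.46, 26.89, 29.61 and 21.6 in DMSO and 89.8, 93.75, 88.51 and 77.23 in sorafenib at 48 hours. They were 18.38, 15.42, 16.4 and 9.275 in DMSO and 137.2, 171.4, 203.8 and 145.6 in sorafenib at 7 days. All sorafenib libraries exceeded all DMSO libraries, and the DMSO level was low. The log2 fold change was 1.78 ± 0.18 (SE, FDR = 3.26e-08) at 48 hours (3.43-fold) and 3.47 ± 0.17 (SE, FDR = 6.22e-13) at 7 days (11.1-fold), and the difference between the responses, 1.70 ± 0.27 (SE, FDR = 4.65e-05), was the largest among the 28.

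*Gpat4*, the abundant paralog of *Gpat3*, had means of 3549 ± 128 and 3880 ± 212 at 48 hours and 4263 ± 63.8 and 4136 ± 85.0 at 7 days. Its 48-hour log2 fold change was 0.13 ± 0.037 (SE, FDR = 0.0066) and that of 7 days -0.04 ± 0.037 (SE, FDR = 0.333), the latter not called, with a 95% interval from -0.12 to 0.03. The 48-hour call was lost without DMSO 48 hours replicate 3, at 0.08 (FDR = 0.099). Per length, *Gpat4* was still 89.6% ± 1.8 of the counts of the 3 GPAT members in sorafenib at 7 days, with 99.0% ± 0.28 in DMSO. This sum leaves out *Gpam*, a glycerol-3-phosphate acyltransferase excluded by the naming rule, so these are not shares of all GPAT counts. *Gpam* had means of 1962 and 1611 normalized counts in DMSO and sorafenib at 48 hours, and 1705 and 1322 at 7 days. It was called lower at both times (-0.28, FDR = 0.00861, and -0.37, FDR = 0.000938). Its spread in sorafenib at 48 hours was wide (SD 303).

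Of the 5 AGPAT members, which acylate lysophosphatidate, 4 rose and 1 fell at both times. Among all genes that reached a mean of 50 normalized counts, 75.8% were called at 48 hours and 75.9% at 7 days, in either direction. *Agpat4* (chromosome 17, 12337358 to 12438538, plus strand) had 608, 536.1, 608.5 and 557.4 in DMSO and 1162, 839.2, 1310 and 1202 in sorafenib at 48 hours, the second value being that of the library with lowered counts. After 7 days its counts were 572, 526, 561.9 and 589.9 in DMSO and 1724, 1836, 1730 and 1830 in sorafenib. No sorafenib library fell within the DMSO range. Its log2 fold change was 0.98 ± 0.091 (SE, FDR = 1.36e-08) and 1.66 ± 0.089 (SE, FDR = 2.21e-12), and without that library the 48-hour value was 1.09 (FDR = 4.6e-25). *Agpat5*, found in mitochondria, was the member of this class that fell, from 2369 ± 43.4 to 1581 ± 136 at 48 hours and from 2252 ± 84.4 to 1100 ± 28.3 at 7 days (-0.59 ± 0.048 (SE, FDR = 1.7e-09) and -1.03 ± 0.048 (SE, FDR = 2.47e-13)). It overlaps *Gm35934* on 18.2% of its exon length.

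*Agpat2*, an AGPAT abundant in fat tissue, rose by 0.73 and 0.92 on the log2 scale (FDR = 6.8e-08 and 1.62e-09). The gene *Egfl7* of the other strand, which covers 24.2% of its exon length, had log2 fold changes of -1.37 and -1.26. *Agpat3* rose by 0.38 and 0.26 (FDR = 1.27e-08 and 3.09e-06). *Agpat1* had 3140, 1898, 2954 and 3107 in sorafenib at 48 hours beside 2090, 2030, 2069 and 2200 in DMSO, so that its groups overlapped only through replicate 2, the lowered library. Its log2 fold change was 0.41 ± 0.101 (SE, FDR = 0.00181) at 48 hours and 0.31 ± 0.100 (SE, FDR = 0.0128) at 7 days, and without that library 0.55 (FDR = 3.82e-19) and 0.305 (FDR = 7.59e-12). Without it the response was smaller at 7 days than at 48 hours by -0.24 (FDR = 3.19e-05), which was not called with all libraries (-0.10 ± 0.14 (SE, FDR = 0.638)).

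Lipins dephosphorylate phosphatidate to diacylglycerol, and *Lpin1* (chromosome 12, 16584818 to 16703913, minus strand), which also acts as a transcriptional coactivator in liver, fell more than any other of the 28. At 48 hours it had 874.8, 786.9, 959.7 and 1083 in DMSO and 319.9, 337.2, 320.7 and 305.5 in sorafenib. The 7-day counts were 576.3, 539.7, 596.5 and 623.3 in DMSO and 104.6, 141.3, 97.96 and 123.9 in sorafenib. The 4 groups did not overlap in any pair, and the DMSO level also fell with time. The log2 fold change was -1.53 ± 0.094 (SE, FDR = 2.19e-11) at 48 hours and -2.31 ± 0.11 (SE, FDR = 2.58e-13) at 7 days, to 0.346 and 0.202 of the DMSO level, and the response was larger at 7 days (-0.78 ± 0.15 (SE, FDR = 0.000263)).

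*Lpin2* did not follow *Lpin1*. It had means of 929.7 ± 46.0 and 926 ± 169 at 48 hours, with 685 in replicate 2, the lowered library, and 789.6 ± 30.3 and 935 ± 25.9 at 7 days. Its log2 fold change was 0.00 ± 0.086 (SE, FDR = 0.991) at 48 hours, and 0.11 without that library (FDR = 0.0359). At 7 days it was 0.24 ± 0.086 (SE, FDR = 0.0197), a call that was lost without DMSO 7 days replicate 4 (0.22, FDR = 0.0542) and without sorafenib 7 days replicate 3 (0.23, FDR = 0.0524). *Lpin3* was low, with 31.2 ± 3.61 normalized counts in DMSO and 4.30 ± 1.37 in sorafenib at 48 hours and 17.2 ± 4.17 and 1.02 ± 1.39 at 7 days, and was called lower at both times.

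The lipid phosphate phosphatases also went both ways. *Plpp3* (chromosome 4, 105014421 to 105089964, plus strand) encodes an enzyme of the cell surface that degrades lysophosphatidate and sphingosine phosphate. It had 143.7, 140.5, 126.6 and 151.2 in DMSO and 61.74, 57.46, 50.44 and 56.79 in sorafenib at 48 hours. At 7 days it had 210.8, 206.4, 263.3 and 218.9 in DMSO and 66.37, 47.92, 58.6 and 52.14 in sorafenib. The sorafenib libraries of both times overlapped, while DMSO was higher at 7 days. *Plpp3* fell by 1.32 on the log2 scale at 48 hours and by 2.01 at 7 days (FDR = 9.82e-09 and 2.34e-12), a difference of -0.69 ± 0.17 (SE, FDR = 0.00306).

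*Plpp2* (chromosome 10, 79362264 to 79369631, minus strand), of the same family, had 429.1, 382.6, 416.5 and 425.2 in DMSO and 520.6, 638.1, 506.3 and 520.2 in sorafenib at 48 hours. After 7 days its counts were 284.4, 275, 307.3 and 311.6 in DMSO and 569.2, 706.6, 677 and 695.5 in sorafenib. It was higher in all sorafenib libraries, by 0.40 ± 0.079 (SE, FDR = 0.000242) at 48 hours and 1.17 ± 0.079 (SE, FDR = 8.21e-11) at 7 days, with a larger response at 7 days (0.78 ± 0.11 (SE, FDR = 1.31e-05)). *Plpp1* rose from 396 ± 7.43 to 581 ± 30.3 and from 609 ± 20.7 to 817 ± 17.5 (0.55 ± 0.047 (SE, FDR = 3.75e-09) and 0.42 ± 0.043 (SE, FDR = 4.79e-08)). It overlaps *Mtrex* on 12.9% of its exon length, and *Mtrex* had a mean of 4672 normalized counts and log2 fold changes of 0.12 and -0.20. *Plpp5* was lower at 7 days (-0.28 ± 0.064 (SE, FDR = 0.00075)) and not called at 48 hours (-0.10 ± 0.062 (SE, FDR = 0.174)), where the call appeared without DMSO 48 hours replicate 1 (-0.16, FDR = 0.0457) or sorafenib 48 hours replicate 2 (-0.14, FDR = 0.0386).

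Phospholipases D1 and D2, which release phosphatidate from phosphatidylcholine, both rose. *Pld1* (chromosome 3, 27992788 to 28188692, plus strand) had 92.86, 89.36, 102.1 and 90.73 in DMSO and 298.9, 279.7, 275.1 and 295.3 in sorafenib at 48 hours. The 7-day counts were 58.39, 76.24, 50.07 and 80.69 in DMSO and 302.6, 333, 341.1 and 328.6 in sorafenib. Every sorafenib library was above every DMSO library. The log2 fold change was 1.62 ± 0.100 (SE, FDR = 2.24e-11) at 48 hours (3.06-fold) and 2.29 ± 0.101 (SE, FDR = 1.05e-13) at 7 days (4.91-fold), with a larger response at 7 days (0.68 ± 0.15 (SE, FDR = 0.000971)). *Pld2* rose by 0.54 and 1.08 (FDR = 3.5e-05 and 3.43e-09), and its response too was larger at 7 days (0.53 ± 0.13 (SE, FDR = 0.00271)). *Pld3*, a lysosomal nuclease despite its name, was the most abundant of the family, at 1193 ± 26.2 normalized counts in DMSO at 48 hours. It was lower in sorafenib at 48 hours (-0.26 ± 0.043 (SE, FDR = 2.54e-05)) and not called at 7 days (-0.07 ± 0.044 (SE, FDR = 0.225)).

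The other 13 members had means of 0.967 to 45.9 normalized counts. At 48 hours 4 of them were called lower (*Pla2g4c*, *Lpin3*, *Pld6* and *Plpp7*), and at 7 days *Lpin3* and *Pld6* were called lower and *Plaat3* and *Pld4* higher. In most of these groups the mean was near or under the 2.44 to 4.54 normalized counts that 3 counts stand for in a library, so no fold change is given. *Pla2g4c*, a cytosolic phospholipase A2, was the highest of them, with 45.5 ± 6.77 and 28.3 ± 1.02 at 48 hours and 52.8 ± 5.63 and 57.0 ± 9.29 at 7 days. *Pld6*, the mitochondrial phospholipase D, overlaps the abundant gene *Mprip* on 7.95% of its exon length, and *Pla2g4b* and *Gpat2* overlap other genes on 66.5% and 60.8%, so their counts are uncertain.

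The response to sorafenib differed between the times for 20 members. It was more positive at 7 days for 11, where 15.5% of all genes were, and more negative for 9, where 21.3% were. Among the 28 more abundant members it differed for 18, against 55.2% of the 11491 genes whose mean also reached 50 normalized counts. Of the 24 members called in the same direction at both times, 15 had the larger absolute log2 fold change at 7 days. The matching share of all genes is not given for this count. The rise over DMSO was larger at 7 days for *Gpat3*, *Pld1*, *Pla2g4a*, *Pla2g12a*, *Agpat4*, *Plpp2* and *Pld2*. The fall below DMSO was larger for *Lpin1*, *Plpp3*, *Lpcat3*, *Lpcat4* and *Agpat5*. A larger response need not be a further change under sorafenib. The sorafenib groups of *Pld1*, *Pla2g12a* and *Pld2* were not called different between the times (0.19, -0.08 and 0.04, FDR = 0.0907, 0.137 and 0.747). Their DMSO groups were called lower at 7 days (-0.49, -0.345 and -0.49). *Mboat1*, *Lpcat2* and *Lpcat1* had the smaller response at 7 days. The 2 responses rest on separate DMSO libraries.

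**Figure D4:**
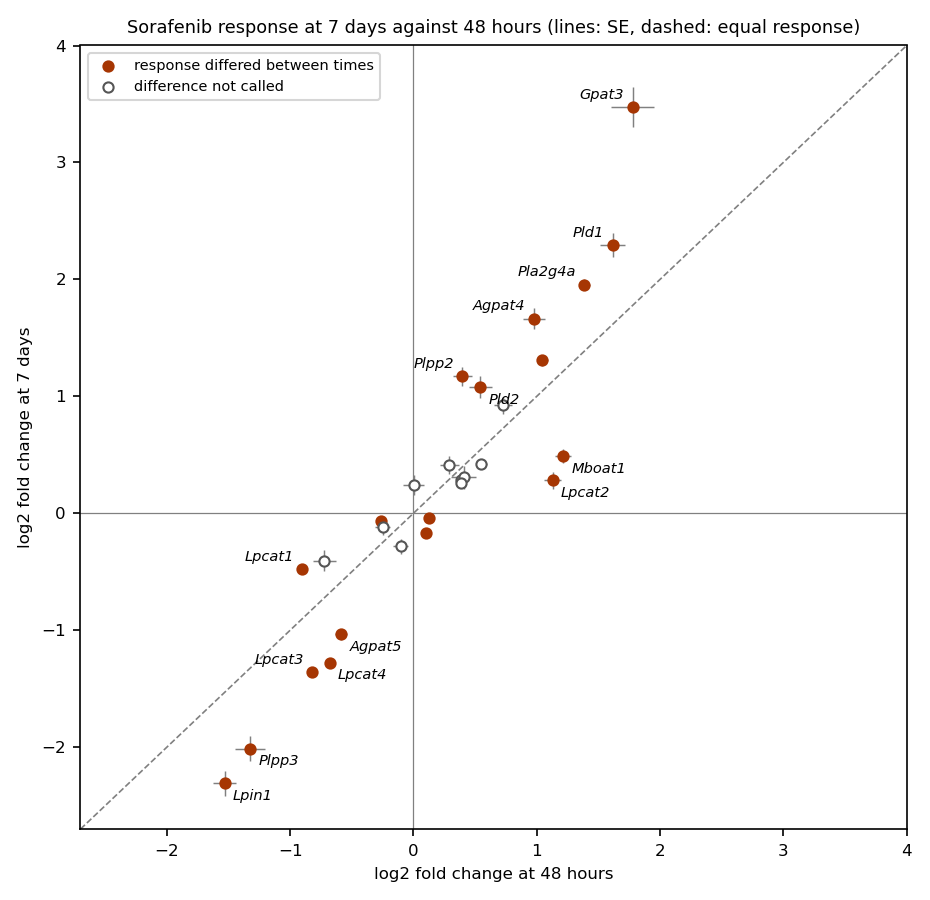
Log2 fold change of sorafenib against DMSO at 48 hours (horizontal axis) and at 7 days (vertical axis) for the 28 members whose mean reached 50 normalized counts, with SE. Filled points are members whose response differed between the times, and those with a difference over 0.4 are named. Points above the dashed line had the more positive response at 7 days, *Gpat3* by 1.70, and *Lpcat2* lies below it by 0.85.

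DMSO alone also differed between the times. At 7 days of DMSO 18 members were lower than at 48 hours and 7 were higher, against 25.5% and 23.9% of all genes. Time and any change in the culture between 48 hours and 7 days cannot be told apart. *Mboat1* was higher (0.79 ± 0.066 (SE, FDR = 4.44e-09)), as were *Plpp3* (0.68 ± 0.093 (SE, FDR = 4.05e-06)) and *Plpp1* (0.62 ± 0.046 (SE, FDR = 7.34e-10)). *Pld3* (-0.67 ± 0.043 (SE, FDR = 7.56e-11)), *Lpin1* (-0.67 ± 0.086 (SE, FDR = 1.75e-06)) and *Gpat3* (-0.77 ± 0.24 (SE, FDR = 0.0112)) were lower. Between the sorafenib groups, 17 members differed, 7 higher and 10 lower at 7 days, against 39.7% of genes in either direction. Under 2 other scalings (DESeq2's size factors, total counts alone) that split was 10 higher and 9 lower. For *Mboat1*, *Plpp3* and *Lpcat1* the sorafenib groups of the 2 times were not called different (0.06 ± 0.060 (SE, FDR = 0.488), -0.01 ± 0.14 (SE, FDR = 0.973) and 0.02 ± 0.041 (SE, FDR = 0.741)), while their DMSO groups were. For *Lpcat2* and *Agpat4* it was the reverse: the sorafenib groups differed (-0.98 ± 0.066 (SE, FDR = 3.12e-10) and 0.65 ± 0.086 (SE, FDR = 3.92e-06)) and the DMSO groups were not called different (-0.13 ± 0.071 (SE, FDR = 0.14) and -0.04 ± 0.094 (SE, FDR = 0.784)).

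Ratios of 2 members within a library do not depend on how libraries were scaled. The pairs were chosen after their values were seen and are given as a description. Per length, *Pla2g4a* stood at 0.273 of *Lpcat3* in DMSO and 1.26 in sorafenib at 48 hours, and at 0.28 and 2.78 at 7 days. Because *Lpcat3* overlaps *Emg1* (mean of 2469 normalized counts) on 53.8% of its exon length, the level of this ratio is uncertain. Which of the 2 genes was higher in sorafenib is therefore uncertain too. *Agpat4* stood at 0.497 of *Agpat5* in DMSO and 1.44 in sorafenib at 48 hours, and at 0.51 and 3.3 at 7 days. *Agpat4* lies in the lowered region, and in sorafenib 48 hours replicate 2 the log2 ratio was -0.05, beside at most 0.86 in the others. *Gpat3* stood at 0.021 of *Gpat4* in DMSO and 0.0657 in sorafenib at 48 hours, and at 0.0101 and 0.114 at 7 days, so the order of this pair did not change. *Lpcat2* against *Lpcat1* was 0.13 and 0.535 at 48 hours and 0.158 and 0.268 at 7 days. *Lpin1* against *Lpin2* was 1.07 and 0.379 at 48 hours and 0.797 and 0.134 at 7 days. *Lpin2* too lies in the lowered region, and in sorafenib at 48 hours this log2 ratio ran from -1.59 to -0.91 between libraries.

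**Figure D5:**
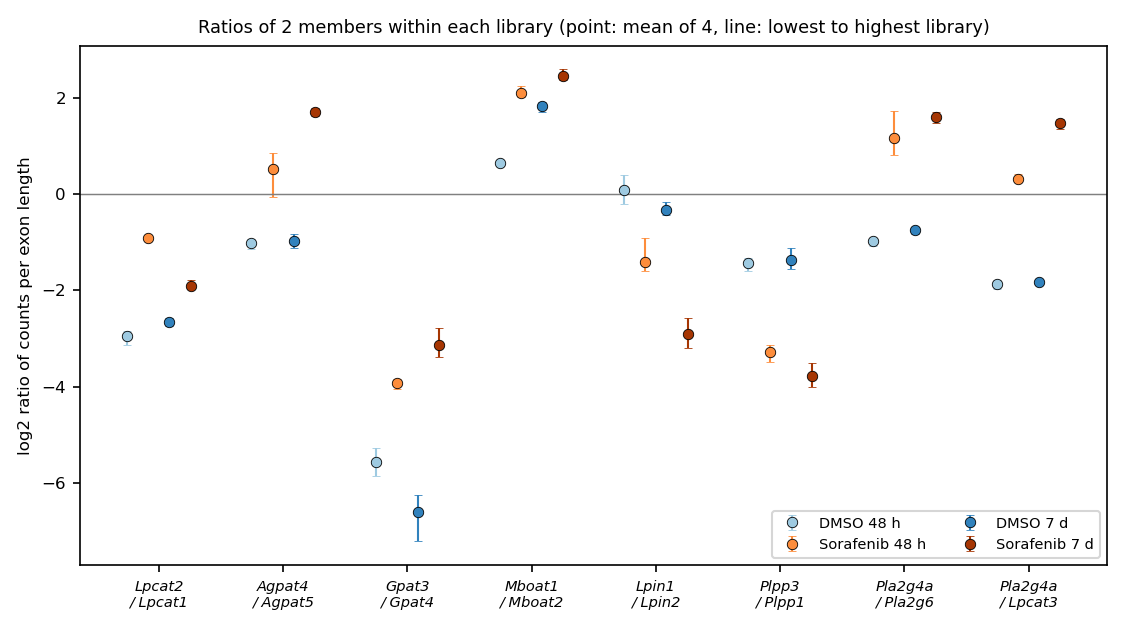
Log2 ratio of counts per exon length of 2 members within each library (vertical axis, 0 where both are equal) for 8 pairs, as the mean of 4 libraries with a line from the lowest to the highest library. *Pla2g4a* against *Lpcat3* lies below 0 in DMSO (0.273 and 0.28 on the linear scale) and above 0 in sorafenib (1.26 and 2.78). The level of this ratio is uncertain, because *Lpcat3* overlaps *Emg1* on 53.8% of its exon length.

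Related genes outside the naming rule were taken from 3 lists. Beside the counts of all 3 stand 26.9% of all genes called higher and 27.7% lower at 48 hours. At 7 days these shares were 28.9% and 27.9%. Of 29 other genes of phospholipid hydrolysis and reacylation, 9 rose and 13 fell at 48 hours and 11 rose and 12 fell at 7 days, with a median log2 fold change of -0.23 and 0.01. Of 17 tested genes that make or break down arachidonate products, 4 rose and 7 fell at 48 hours and 3 rose and 8 fell at 7 days, with medians of -0.37 and -0.09. The cyclooxygenases, which use the arachidonate released by phospholipase A2, went opposite ways. *Ptgs2*, the inducible one, rose from 41.15 ± 3.01 to 270.3 ± 18.5 normalized counts at 48 hours and from 216 ± 19.2 to 949 ± 13.7 at 7 days, with log2 fold changes of 2.71 ± 0.090 (SE) and 2.14 ± 0.060 (SE, FDR = 7.62e-17). *Ptgs1*, the constitutive one, fell from 5306 ± 116 to 2753 ± 129 and from 4623 ± 182 to 1693 ± 22.7, with -0.95 ± 0.036 (SE, FDR = 1.24e-14) and -1.45 ± 0.037 (SE, FDR = 1.87e-17). *Ptgis*, prostacyclin synthase, had log2 fold changes of 0.27 ± 0.032 (SE, FDR = 5.53e-07) at 48 hours and -0.70 ± 0.032 (SE, FDR = 2.32e-13) at 7 days.

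Of the 7 genes of lysophosphatidate signalling, 2 rose and 2 fell at 48 hours and 4 rose and 1 fell at 7 days, with medians of 0.06 and 0.46. *Lpar1*, a lysophosphatidate receptor, stood at 530 ± 20.1 normalized counts in DMSO and 597 ± 47.6 in sorafenib at 48 hours, and at 1033 ± 13.6 and 175 ± 17.6 at 7 days, with log2 fold changes of 0.17 ± 0.060 (SE, FDR = 0.022) and -2.56 ± 0.065 (SE, FDR = 1.74e-17). *Enpp2*, which encodes the secreted enzyme autotaxin that makes lysophosphatidate, was low, at 13.9 ± 3.43 and 3.07 ± 1.47 at 48 hours and 3.32 ± 1.82 and 23.0 ± 3.63 at 7 days, and was called lower at 48 hours and higher at 7 days. Names of genes on these 3 lists were picked after their values were seen.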

How the data were processed

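The authors sequenced 16 libraries, made with a stranded mRNA kit, on an Illumina NovaSeq. They mapped reads to GRCm39 with STAR 2.7.1a and deposited raw counts per gene, with no normalization. Their processing notes also name featureCounts 2.0.6, Subread and DESeq2 1.40.2. The gene annotation and the strand setting of the counting are not given in the sources used here, so counts of overlapping genes are uncertain. Replicates were labelled 1 to 4 in each group.

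Genes under 10 counts in total (20396) were removed, and 20444 were kept. The tests used edgeR 4.0.16 in R 4.3.3 (quasi-likelihood, TMM, 1 model with a coefficient per group and no block), and DESeq2 1.42.0 was an alternative. All FDR values were adjusted by Benjamini-Hochberg over all genes tested, and intervals are at 95%. For a normalized count, the count was divided by the effective library size (total count and TMM factor multiplied), scaled to a geometric mean of 1. In a library, 3 counts correspond to 2.44 to 4.54 normalized counts, and the precision of low genes is limited accordingly. The code was tested on simulated data.

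Exon lengths and overlaps came from GENCODE vM39. Members whose mean reached 50 normalized counts were named. Every library's value was printed for *Lpcat3*, *Pla2g4a*, *Mboat1* and *Mboat2*, for the 3 largest called rises and falls at each time, for the 4 largest called differences between the times, and for members in the lowered region where it matters. The members, lists and tests were chosen with earlier results of these data known. No pair of replicates was alike within counting error (median chi-square per gene at least 0.655, where counting error alone gives 0.455), so none was merged. Alternatives were another normalization, DESeq2, other filters, a fold threshold, only the groups compared, a replicate block, an offset for the lowered region and leaving out each library. Of the liver marker list, 1 gene is not reported here and was left out of its sums.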

Additional observations from a re-analysis of the deposited data

Results flagged for a closer look

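In 11 of 112 groups of 4 libraries (28 members, 4 groups each), the highest or lowest library stood apart by Dixon's criterion at 95%, for which chance gives about 1 in 20. In normalized counts, the library lay below the others for *Pla2g4a* in DMSO 48 hours replicate 4 (527.1), *Lpgat1* in sorafenib 48 hours replicate 1 (3213), *Agpat2* in DMSO 7 days replicate 3 (210.6), *Pla2g15* in sorafenib 7 days replicate 2 (302.1) and *Agpat1* in sorafenib 48 hours replicate 2 (1898). It lay above the others for *Lpcat4* in DMSO 7 days replicate 2 (2649), *Plpp1* in DMSO 7 days replicate 2 (639.9), *Gpat4* in sorafenib 48 hours replicate 2 (4196), *Plpp2* in sorafenib 48 hours replicate 2 (638.1), *Plpp5* in sorafenib 7 days replicate 3 (538.8) and *Lpcat2* in sorafenib 7 days replicate 3 (281.6). Of these, 3 belong to sorafenib 48 hours replicate 2, the library with lowered counts for *Agpat1* and the genes of its region. *Gpat4* and *Plpp2* lie outside that region, where this library's shares of total counts lay above its group by a median of 0.13 on the log2 scale.

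The sorafenib response differed between 48 hours and 7 days, by edgeR's interaction test, for 18 of the 28 more abundant members, against 55.2% of the 11491 genes whose mean also reached 50 normalized counts. On the log2 scale it was more positive at 7 days for *Gpat3* (1.70), *Plpp2* (0.78), *Agpat4* (0.69), *Pld1* (0.68), *Pla2g4a* (0.57), *Pld2* (0.53), *Lpcat1* (0.43), *Pla2g12a* (0.26) and *Pld3* (0.20). It was more negative for *Lpcat2* (-0.85), *Lpin1* (-0.78), *Mboat1* (-0.73), *Plpp3* (-0.69), *Lpcat4* (-0.60), *Lpcat3* (-0.54), *Agpat5* (-0.45), *Mboat7* (-0.27) and *Gpat4* (-0.17).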

How the results depend on the processing

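A threshold of 1 on the absolute log2 fold change moved every count of called members: to 6 higher and 5 lower at 48 hours, 9 and 7 at 7 days, 2 and 0 for the difference between the responses, 0 and 1 for DMSO at 7 days against 48 hours, and 2 and 2 for sorafenib at 7 days against 48 hours, in edgeR's test, which without that threshold gave 9 and 7 where the 2 counts are 0. Under the other alternatives each count stayed within 1.5 times. Leaving out 1 library gave 15 to 18 higher and 12 to 14 lower at 48 hours, 17 to 18 and 11 to 12 at 7 days, 10 to 13 and 8 to 11 for the difference, 6 to 8 and 15 to 19 for DMSO, and 7 to 10 and 8 to 11 for sorafenib over time. Of 1988 values of named members under alternatives, 1941 kept their side of the threshold, 18 lost a call and 29 gained one, and the cause was not tested. Of the 1941, 12 had the opposite sign, all of *Lpin2* at 48 hours, which was not called (0.002 with all libraries, -0.091 to -0.006 in the 12). No called value changed sign. The main tests had no block by replicate number, as planned. At 48 hours, deviations from the group means correlated by -0.0472 to 0.00801 between same-numbered libraries of the treatments. Between differently numbered libraries the correlations were -0.0402 to 0.0711. At 7 days these ranges were -0.00676 to 0.122 and -0.157 to 0.11. A replicate block gave 17 higher and 13 lower members at 48 hours and 18 and 11 at 7 days, and 10 and 9 for the difference, where *Pld3* lost its call (0.20, FDR = 0.0524), 8 and 19 for DMSO, and 9 and 7 for sorafenib over time. The difference between the responses of *Agpat3* (-0.13 with all libraries, not called) was called without sorafenib 48 hours replicate 2, DMSO 7 days replicate 3 or 4, or sorafenib 7 days replicate 1 (-0.12 to -0.15). Without sorafenib 48 hours replicate 1, 2 or 3 that of *Pla2g6* was called (0.43, 0.19 and 0.39), without replicate 1 or 3 that of *Lpin2* (0.33 in both) and without replicate 2 that of *Agpat2* (0.28). That of *Gpat4* lost its call without DMSO 48 hours replicate 3 (-0.12). With total counts as the only scaling, the median log2 fold change of all genes was -0.12 at 48 hours and 0.12 for the difference, against -0.05 and 0.02. In a library 3 counts were worth up to 4.54 normalized counts, which limits the precision for the members with low means. A planned search of protein sequences for a motif of the acyltransferases was not run.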
